A study of Mus musculus with 12 samples.

Results

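The Hox genes encode homeodomain transcription factors that lie in 4 clusters, and every protein-coding gene of the deposited table whose symbol is Hoxa, Hoxb, Hoxc or Hoxd followed by a paralog number was taken. This gave 39 genes of the 40912 gene identifiers in the table, of which 21960 are listed as protein coding. There are 11 in the Hoxa cluster on mouse chromosome 6, 10 in Hoxb on chromosome 11, 9 in Hoxc on chromosome 15 and 9 in Hoxd on chromosome 2. By paralog number, 8 are anterior (1 to 3), 15 central (4 to 8) and 16 posterior (9 to 13).

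The libraries were made from spinal cord of mice of 2 bacTRAP lines at postnatal day 21. Both lines carry a bacterial artificial chromosome transgene that expresses the ribosomal protein Rpl10a fused to EGFP. In Tg(Chat-EGFP/Rpl10a)DW167Htz it is driven by sequences of Chat, the acetylcholine synthesis gene of motor neurons and other cholinergic cells, and in Tg(Snap25-EGFP/Rpl10a)JD362Jdd by those of Snap25, a synaptic protein gene of neurons in general. Each line gave 3 libraries of lysate before immunoprecipitation (PreIP_Chat and PreIP_Snap25, called inputs here) and 3 of the RNA bound to tagged ribosomes (TRAP_Chat and TRAP_Snap25, called pulldowns), after 4 h with antibody at 4 °C. All animals were transgenic, so no group without the tagged ribosome is among the 12 libraries. The series compares ribosome-bound RNA of motor neurons with that of all neurons, and a promoter that is also active outside motor neurons limits the Chat line as a model of them. The labels do not say whether the 3 libraries of a group came from separate animals or pools, so each p-value measures only the spread between these libraries, which may be technical. In the submitters' descriptions each input and the pulldown of the same number share a tag, whose meaning is not stated, and values with these numbers as a block are given where they change a call.

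During development, nested Hox expression divides the spinal cord along its length, with low paralog numbers beginning at the hindbrain and high numbers near the tail. Their proteins bind DNA with Pbx and Meis cofactors, and Polycomb and trithorax complexes hold the clusters silent or active. In motor neurons, the Hox code sets columns and pools: Hoxc6 acts at brachial, Hoxc9 at thoracic and Hoxc10 and Hoxd10 at lumbar levels, and Hoxa5 and Hoxc5 in phrenic motor neurons.

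Totals ran from 10149346 to 20521699 counts a library, so that 3 counts correspond to between 0.146 and 0.296 CPM, a count scaled to the size of its library. Mitochondrial ribosomal RNA took 23.2% to 40.7% of the counts in the inputs, 0.209% to 0.680% in 5 of the pulldowns and 6.67% in TRAP_Chat library 1. Chat itself stood at 22.2 ± 7.24 CPM in the Chat input and 159 ± 46.4 CPM in the Chat pulldown (SD, n = 3), 7.18-fold higher with an edgeR quasi-likelihood adjusted p of 1.61e-05. Snap25 was 1.65-fold higher in the Snap25 pulldown than in its input, with an edgeR adjusted p of 0.0544 that missed the threshold of 0.05. The summed level of 8 cholinergic motor neuron markers was 392 to 410.0 CPM in the Chat input and 2401 to 3855 CPM in the Chat pulldown, and neuron markers summed to 8579 CPM or more in every library. Forebrain markers, which spinal cord should lack, summed to 4.03 to 11.4 CPM. In bulk RNA, fewer cells of a type and less RNA per cell cannot be told apart.

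The clusters also hold microRNA genes whose known targets include Hox messages, and their sequences are shown because the Hox gene with the lowest p between the pulldowns, Hoxb8, holds such a target site. Mir196b lies in the Hoxa cluster, Mir196a-1 and Mir10a in Hoxb, Mir196a-2 in Hoxc and Mir10b in Hoxd. The mature sequences, from RefSeq (GRCm38.p6), fall into 2 families by seed, bases 2 to 8, in capitals:
miR-196a-5p: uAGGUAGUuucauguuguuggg
miR-196b-5p: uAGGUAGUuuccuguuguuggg
miR-10a-5p: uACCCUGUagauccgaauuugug
miR-10b-5p: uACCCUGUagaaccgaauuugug
Hoxb8 was the 1 Hox gene whose 3′ untranslated region held a stretch pairing with at least 20 bases of miR-196. This 22-base site starts 418 bases after the stop codon and pairs at all 22 positions with miR-196a, 1 of them a G:U pair, and at 21 with miR-196b. The capitals below mark the bases opposite the seed, and the Hoxb7, Hoxa9, Hoxb3 and Hoxd1 sites are examples of exact seed matches:
Hoxb8 site for miR-196: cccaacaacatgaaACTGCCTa
Hoxb7 site for miR-196: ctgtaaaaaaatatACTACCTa
Hoxa9 site for miR-196: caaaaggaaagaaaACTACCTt
Hoxb3 site for miR-10: tgacttaacgtgaaaACAGGGTa
Hoxd1 site for miR-10: tagcggaacaaatccACAGGGTa
Exact miR-196 seed matches, 13 in all, lay in 9 of the 39 Hox genes (Hoxa7, Hoxa9, Hoxb6, Hoxb7 and Hoxc8 among them), and miR-10 matches in 4 (Hoxb3 and Hoxd1 among them). A match is a description of the letters, and mature microRNAs are not measured by these counts.

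The 250 bases upstream of Hoxb8 and Hoxa9, 2 of the 3 genes whose change differed between the lines, are printed because these windows are unlike. RefSeq (GRCm38.p6) gave upstream windows for 22 of the 39 Hox genes, 24 windows in all. A composite Hox and Pbx motif, TGATNNAT, and a Cdx motif, TTTATG, were searched on both strands, and capitals mark the matches, none of which overlap. The Hoxb8 window (chr11:96281655-96281904, plus strand) holds 1 match to the first, 2 to the second and 12 CpG dinucleotides:
Hoxb8 upstream: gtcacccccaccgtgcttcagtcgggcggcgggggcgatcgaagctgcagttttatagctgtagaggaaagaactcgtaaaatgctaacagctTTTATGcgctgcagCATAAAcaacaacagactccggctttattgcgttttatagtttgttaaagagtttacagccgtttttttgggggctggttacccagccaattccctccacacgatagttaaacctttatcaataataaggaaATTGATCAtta
The Hoxa9 window (chr6:52227371-52227620, minus strand) holds neither motif and 3 CpG:
Hoxa9 upstream: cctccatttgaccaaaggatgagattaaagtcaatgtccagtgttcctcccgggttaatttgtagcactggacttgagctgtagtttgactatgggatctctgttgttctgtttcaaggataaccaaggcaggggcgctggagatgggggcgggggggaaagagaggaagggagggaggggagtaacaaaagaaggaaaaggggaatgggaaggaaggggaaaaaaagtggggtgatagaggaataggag
The median over all 32851 windows was 6 CpG. TGATNNAT was found in 7.68% of all windows and in 4 of the 24 Hox windows (Hoxa2, Hoxb1, Hoxb8 and Hoxd11), and TTTATG in 10.8% of all and in 5 of the 24 (Hoxa7, Hoxb8, Hoxd3, Hoxd4 and Hoxd11).

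Hox genes stayed detectable across all 4 clusters in the postnatal cord, and the central and posterior paralogs held most of the Hox counts. Mean levels, scaled by trimmed mean of M-values (TMM), were at least 50 CPM for 6 of 39 genes in the Chat input, 5 in the Chat pulldown, 7 in the Snap25 input and 8 in the Snap25 pulldown. Under 1 CPM were 7, 11, 5 and 7 genes in the same order. Hoxb1, a hindbrain gene, had no count in any of the 12 libraries, and Hoxd12 had at most 4 counts in any library. These 2 genes did not pass the filter on low counts, and the other 37 were tested together with 15905 genes in all.

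Anterior genes summed to 26.0, 11.5, 26.9 and 13.3 CPM in PreIP_Chat, TRAP_Chat, PreIP_Snap25 and TRAP_Snap25. These were sums of counts, not corrected for gene length, and made up 3.14%, 1.49%, 3.05% and 0.994% of all Hox counts. The anterior sum of the Chat pulldown was 0.443 times that of its input. The 2 anterior genes that share no exon bases with another gene are Hoxb1, which had no count, and Hoxd1. Their ratio of 0.166 (3.59 CPM in the input and 0.598 CPM in the pulldown) is thus that of Hoxd1 alone. Central genes made up 61.6%, 56.1%, 61.8% and 56.6% in the same order, and posterior genes 35.3%, 42.4%, 35.1% and 42.4%.

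Levels of different genes were compared per kilobase (kb) of exon. Hoxb8, a gene known for its part in dorsal horn sensory circuits, had the highest mean of all 39 in both inputs. It stood at 53.6 ± 9.15 and 57.3 ± 15.1 CPM per kb in the Chat and Snap25 lines (SD, n = 3). Hoxc10, a lumbar gene, came next at 47.3 ± 6.18 and 52.6 ± 3.13 CPM per kb, within the SD of Hoxb8. Hoxc10 had the highest mean in both pulldowns, at 81.8 ± 24.4 and 119 ± 37.3 CPM per kb, where Hoxb8 stood at 18.9 ± 5.13 and 94.2 ± 12.9. In library 3 of the Snap25 line, input and pulldown, the order of these 2 genes was reversed. In the Snap25 pulldown the order of the means also depended on the length used, since per kb of coding sequence Hoxb8 stood at 340.4 and Hoxc10 at 222 CPM per kb.

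Within the other clusters, Hoxa7, a trunk patterning gene, led the Hoxa genes in every group (23.3, 30.5, 26.3 and 31.1 CPM per kb of exon in PreIP_Chat, TRAP_Chat, PreIP_Snap25 and TRAP_Snap25). Hoxd9, a gene of the limb-level cord, led the Hoxd genes (22.0, 34.5, 21.4 and 36.0 CPM per kb of exon), and per kb of coding sequence it came after Hoxd8 in both inputs. In the Chat pulldown, Hoxb5 took the first place in its cluster at 28.2 CPM per kb of exon, above Hoxb8 at 18.9. Exons of 16 Hox genes overlap another counted gene in the GENCODE M21 annotation, over 10% of exon bases for 10 of them. Hoxd3 (62.8%), Hoxb3 (52.9%), Hoxd4 (52.3%) and Hoxa11 (35.0%) overlap most, and since the strand setting of the counting is not given in the sources used here, reads there cannot be assigned to 1 gene with certainty.

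**Figure D1:**
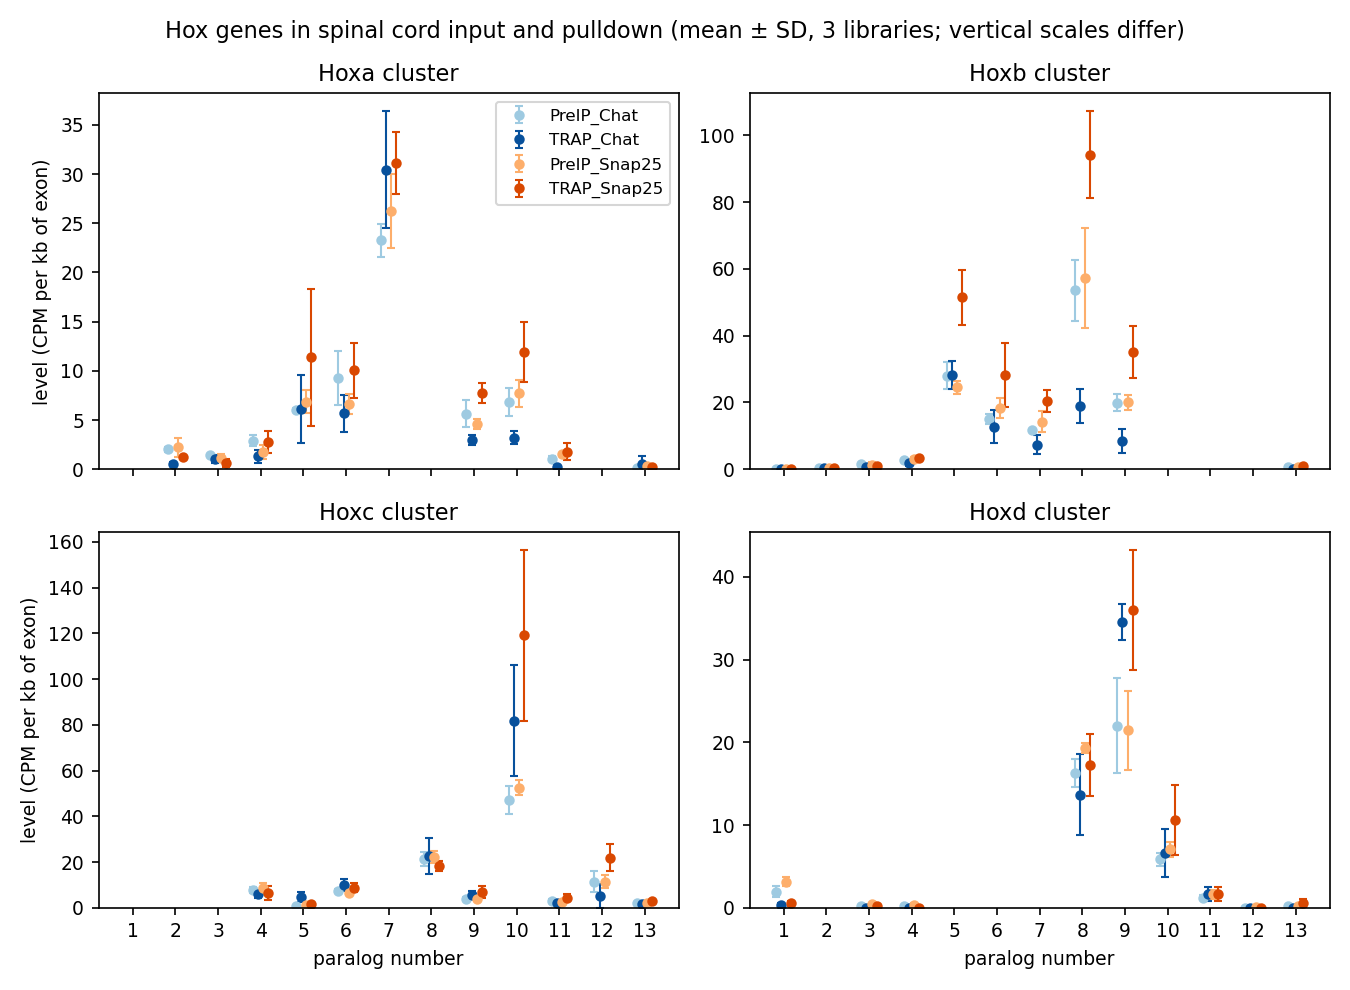
Level of Hox genes (vertical axis, CPM per kb of exon, scales differ between panels) by paralog number (horizontal axis), 1 panel a cluster; points are means and bars the SD of 3 libraries in each of the 4 groups. The Hoxb8 point of the Chat pulldown (18.9 CPM per kb) lies far below that of the Snap25 pulldown (94.2 CPM per kb), while the Hoxd9 points of the pulldowns (34.5 and 36.0 CPM per kb) lie side by side.

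The clusters took different shares of the Hox counts in the Chat pulldown. Hoxb genes held 40.3 ± 1.99% of Hox counts in the Chat input (SD, n = 3) and 27.3%, 25.9% and 22.7% in the 3 Chat pulldown libraries, a mean of 25.3 ± 2.38%. In the Snap25 line, the Hoxb share was 39.4 ± 1.76% in the input and 40.4%, 42.9% and 48.6% in the pulldown libraries. The Hoxc share was 26.8 ± 0.756% in the Chat input, 38.7%, 38.2% and 40.7% in the Chat pulldown, 27.1 ± 1.003% in the Snap25 input and 31.5%, 30.4% and 22.7% in the Snap25 pulldown. Every Chat pulldown library thus lay below every other library for the Hoxb share and above every other for the Hoxc share.

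**Figure D2:**
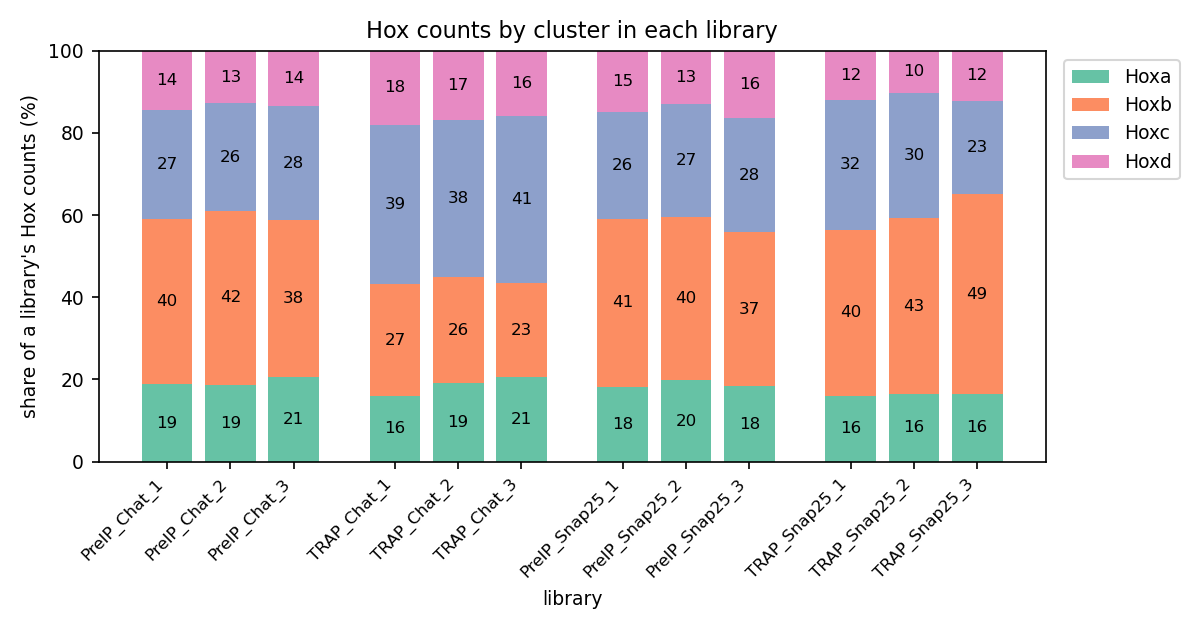
Share of each library's Hox counts (vertical axis, %) held by the Hoxa, Hoxb, Hoxc and Hoxd clusters, for each of the 12 libraries. The Hoxb segment is 22.7% to 27.3% in the 3 Chat pulldown libraries and the Hoxc segment 38.2% to 40.7%.

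On the level scale, summed Hoxb CPM were 335 ± 40.0 in the Chat input, 195 ± 27.3 in the Chat pulldown, 346 ± 52.8 in the Snap25 input and 585 ± 33.1 in the Snap25 pulldown (SD, n = 3). The Chat pulldown was thus 0.333 times the Snap25 pulldown. Summed Hoxc CPM were 223, 302, 237 and 378 in the same order. The Hoxc sum of the Chat pulldown was 1.35 times that of its input, but 1.005 times without Hoxc5 and Hoxc10, whose annotated exons share 166 bases. The sum over all 39 genes was 0.926 times the input in the Chat pulldown by TMM scaling and 1.10 times by total counts, so its direction turned with the scaling, and 1.52 times the input in the Snap25 pulldown by TMM.

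A ratio of 2 genes within a library does not depend on scaling. Hoxb8 and Hoxc10 are genes called lower and higher in the Chat pulldown below, so a lower ratio there restates these calls. Hoxb8 had 1.56 ± 0.123 counts for each Hoxc10 count in the Chat input, 1.49 ± 0.318 in the Snap25 input and 0.854, 0.902 and 1.84 in the Snap25 pulldown libraries. In the Chat pulldown libraries the ratio was 0.264, 0.500 and 0.245, below every other library.

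The first comparison asked which Hox messages were enriched or depleted on Chat-line ribosomes relative to the whole cord. Of the 37 tested genes, 2 rose (Hoxc5 and Hoxc10) and 9 fell (Hoxa2, Hoxa9, Hoxa10, Hoxa11, Hoxb3, Hoxb8, Hoxb9, Hoxd1 and Hoxd3) in the Chat pulldown against its input. Over all genes tested, 12.6% rose and 14.3% fell. The median log2 fold change was -0.58 over the Hox genes and -0.06 over all genes. Of the 37 Hox values 25 were negative, or 24 after a constant shift of 0.24 toward total-count scaling. Libraries of the groups did not overlap for 4 Hox genes that were higher and 15 that were lower in the pulldown, against 21.8% and 26.1% of all genes. By cluster, 4 of 11 Hoxa, 3 of 9 Hoxb and 2 of 8 Hoxd genes fell, while both genes that rose were among the 9 of Hoxc. Without TRAP_Chat library 1, whose mitochondrial RNA share stood apart, 1 Hox gene rose and 8 fell.

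Anterior genes were lower in the Chat pulldown, with a negative fold change for all 7 tested, a median of -1.54 on the log2 scale, and 4 that fell. Hoxd1, known for its role in sensory neuron wiring, stood at 4.70, 2.27 and 3.81 CPM in the Chat input libraries and 1.05, 0.378 and 0.364 CPM in the pulldown libraries. The groups did not overlap, and Hoxd1 was 5.94-fold lower (log2 ratio -2.57 ± 0.62 SE, edgeR adjusted p = 0.00658), or -3.25 on the log2 scale without TRAP_Chat library 1. Hoxa2, which patterns the hindbrain, was at 3.603, 3.10 and 4.02 CPM in the input and 1.42, 0.756 and 0.781 CPM in the pulldown. Every pulldown library was lower (log2 ratio -1.85 ± 0.54 SE, edgeR adjusted p = 0.0177). The edgeR adjusted p of Hoxa2 became 0.0588 without PreIP_Chat library 3, 0.0539 without TRAP_Chat library 2 and 0.0534 without TRAP_Chat library 3.

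Hoxb3, a hindbrain and cervical gene, was at 7.45, 8.31 and 5.87 CPM in the input and 0.989, 3.55 and 2.92 CPM in the pulldown. Its libraries did not overlap and it was 2.90-fold lower (log2 ratio -1.54 ± 0.50 SE, edgeR adjusted p = 0.0324). The antisense gene Hoxb3os shares exon bases with it. Hoxb3 missed the threshold without PreIP_Chat library 1, 2 or 3 (edgeR adjusted p = 0.0795, 0.103 and 0.0544) and without TRAP_Chat library 1 or 3 (0.0868 and 0.0533). Hoxd3, a cervical gene, was at 0.427, 0.831 and 1.53 CPM in the input and 0, 0 and 0.156 CPM in the pulldown. It had 3 counts in the 3 Chat pulldown libraries together and 51 in the input, a depth-scaled ratio of 15.5-fold lower with a 95% counting interval from 5.01 to 77.6. Its edgeR log2 fold change was -3.83 ± 1.05 SE with an adjusted p of 0.0131, which became 0.0630 without PreIP_Chat library 3, and without TRAP_Chat library 3 the log2 value was -6.89.

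Central genes mostly showed no called change in the Chat pulldown: 1 of 15 rose, 1 fell, and their median was -0.26 on the log2 scale. Hoxb8 (ENSMUSG00000056648) was at 159, 151 and 114 CPM in the Chat input and 55.1, 59.8 and 34.4 CPM in the pulldown. All pulldown libraries lay below all input libraries, and Hoxb8 fell 2.84-fold (log2 ratio -1.51 ± 0.27 SE, edgeR adjusted p = 0.000883). Hoxc5 (ENSMUSG00000022485), which acts with Hoxa5 in phrenic motor neurons, was at 2.08, 2.49 and 3.65 CPM in the input and 7.48, 17.1 and 20.04 CPM in the pulldown. Every pulldown library was higher, and Hoxc5 rose 5.41-fold (log2 ratio 2.43 ± 0.45 SE, edgeR adjusted p = 0.00111). Its partner Hoxa5 was at 11.3 ± 0.36 CPM in the input and 11.6 ± 6.47 CPM in the pulldown, with pulldown libraries on both sides of the input. Hoxc8, a brachial and thoracic gene, was at 60.4 ± 8.16 and 63.8 ± 22.5 CPM, and Hoxc6, the brachial gene, at 17.5 ± 2.41 and 23.8 ± 6.54 CPM, neither called.

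Of the 15 posterior genes tested, Hoxc10 rose and Hoxa9, Hoxa10, Hoxa11 and Hoxb9 fell in the Chat pulldown. Values of both signs stood within the clusters, such as -1.13 for Hoxc12 and 1.77 for Hoxa13 on the log2 scale, neither called. Hoxc10 (ENSMUSG00000022484) was at 102, 89.3 and 78.9 CPM in the input and 209, 119.7 and 140.3 CPM in the pulldown. The groups did not overlap and Hoxc10 was 1.73-fold higher (log2 ratio 0.79 ± 0.26 SE, edgeR adjusted p = 0.0351). This call was lost without PreIP_Chat library 1, 2 or 3 (edgeR adjusted p = 0.0611, 0.105 and 0.131) and without TRAP_Chat library 1 (0.172, log2 fold change 0.52). Hoxb9, a thoracic gene, was at 58.1, 50.9 and 45.2 CPM in the input and 30.3, 23.0 and 12.4 CPM in the pulldown. All pulldown libraries were lower, 2.35-fold on the fitted scale (edgeR adjusted p = 0.00568).

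Hoxa9, of the same paralog group as Hoxb9, was at 40.2, 29.0 and 25.3 CPM in the Chat input and 18.8, 17.2 and 13.2 CPM in the pulldown. It fell 1.92-fold without overlap (edgeR adjusted p = 0.0132), which became 0.0813 without PreIP_Chat library 1 and 0.0552 without TRAP_Chat library 3. Hoxa10, a lumbar gene, was at 27.7, 20.1 and 19.1 CPM in the input and 8.28, 12.6 and 10.4 CPM in the pulldown. It fell 2.14-fold without overlap (edgeR adjusted p = 0.0104, and 0.0563 without PreIP_Chat library 1). Hoxa11, a limb patterning gene with a long antisense overlap, was at 2.14, 2.10 and 3.28 CPM in the input and 0.185, 0.227 and 1.09 CPM in the pulldown. Every pulldown library was lower (log2 ratio -2.26 ± 0.68 SE, edgeR adjusted p = 0.0209). Hoxa11 missed the threshold without PreIP_Chat library 3 (0.0747), TRAP_Chat library 1 (0.0593) or TRAP_Chat library 2 (0.0703), and without TRAP_Chat library 3 its log2 value was -3.57.

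Hoxd9, of the same paralog group as Hoxa9 and Hoxb9, was higher in all Chat pulldown libraries (73.8, 69.0 and 78.2 CPM) than in the input (61.1, 40.6 and 39.1 CPM), with an edgeR adjusted p of 0.0625 that missed the threshold, and 0.0438 with the replicate block. Hoxa7 was likewise at 72.1, 85.1 and 106 CPM in the pulldown and 69.0, 61.3 and 70.3 CPM in the input, with an edgeR adjusted p of 0.196.

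Markers of several other cell types also differed in the Chat pulldown, and their part in the Hox values was not tested. In the Chat pulldown all 6 inhibitory neuron markers fell, from a summed 922 to 1017 CPM in the input to 144 to 301 CPM, as did 4 of 5 excitatory neuron markers, from 112 to 127 CPM to 37.6 to 48.7 CPM. All 6 oligodendrocyte, 6 astrocyte, 4 oligodendrocyte precursor and 5 microglia markers fell too, and none of these lists was at 0 in any library. Over all genes, 12.6% rose and 14.3% fell. Of 4 endothelium markers 0 were called. Of 4 tested Schwann and dorsal root ganglion markers 2 fell, and the 6 listed summed to 515 to 1382 CPM in the input and 961 to 1098 CPM in the pulldown.

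**Figure D3:**
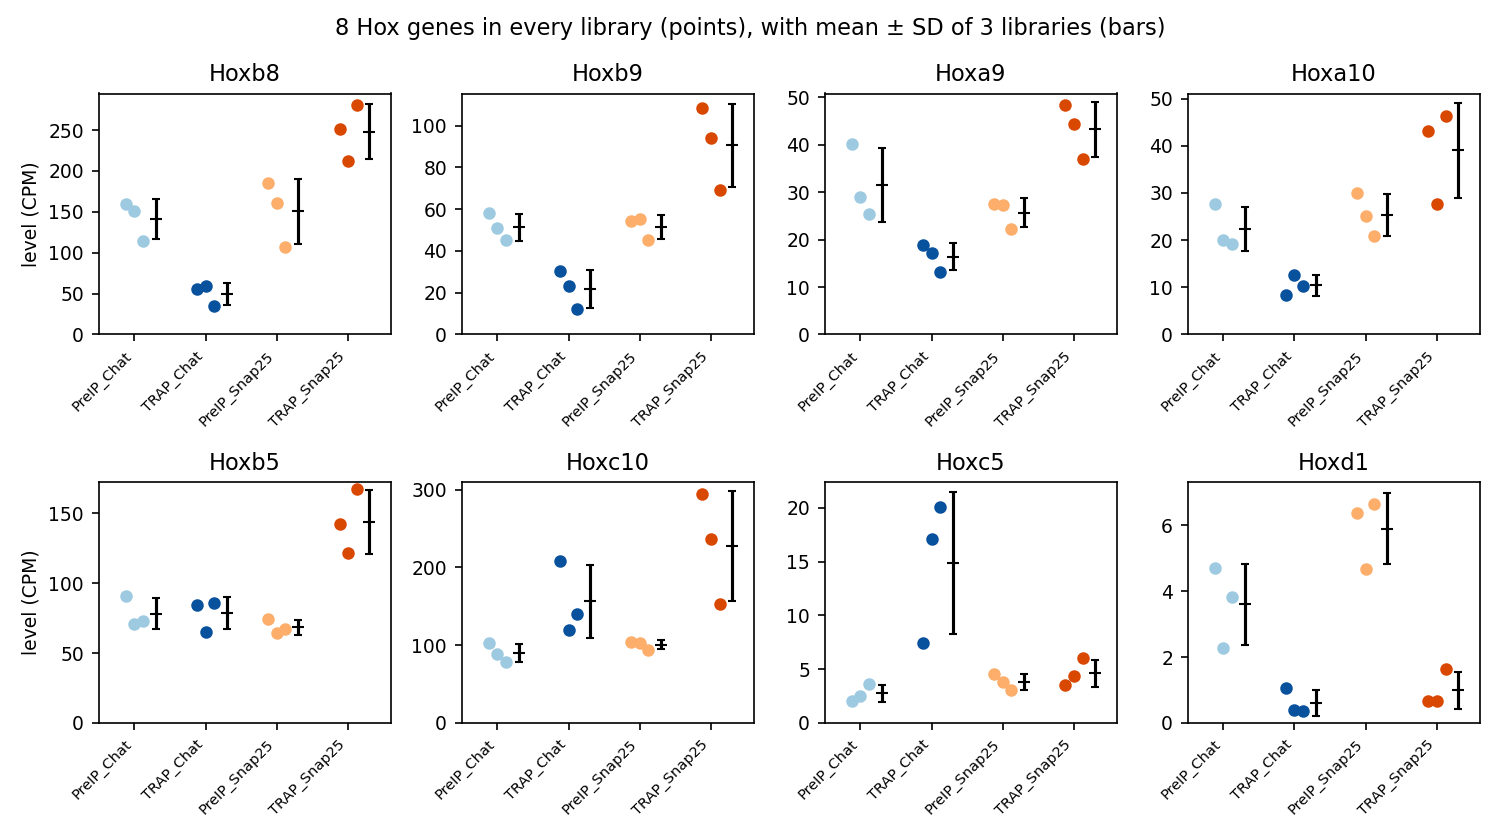
Level (vertical axis, CPM) of 8 Hox genes in each of the 12 libraries, by group (horizontal axis); points are libraries and bars the mean and SD of 3. Chat pulldown points of Hoxb8 (34.4 to 59.8 CPM) and Hoxb9 (12.4 to 30.3 CPM) lie below all other groups, and those of Hoxc5 (7.48 to 20.04 CPM) above all other groups.

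The second comparison set the Snap25 pulldown, drawn from neurons in general, against its own input. Hoxb5, Hoxc10, Hoxd9 and Hoxa9 rose and Hoxd1 fell, that is 4 higher and 1 lower of 37, where 9.69% of all genes rose and 12.7% fell. The median log2 fold change was 0.45 over the Hox genes and -0.00 over all genes. Of the 37 Hox values 26 were positive, or 28 after a constant shift toward total-count scaling. That shift was 0.38 on the log2 scale in this comparison and 0.24 in the Chat line, and no new fit was made for it. Libraries did not overlap for 9 Hox genes that were higher and 4 that were lower, against 16.6% and 21.4% of all genes.

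By class, 14 of 15 posterior genes had positive values in the Snap25 pulldown, with a median of 0.73 on the log2 scale, and by cluster 8 of 9 Hoxb genes did. Hoxb5, a cervical and brachial gene, was at 74.4, 64.1 and 66.9 CPM in the Snap25 input and 143, 121 and 167 CPM in the pulldown. Its groups were far apart, 2.10-fold (log2 ratio 1.07 ± 0.22 SE, edgeR adjusted p = 0.00300). Hoxc10 was at 104, 103 and 93.5 CPM in the input and 294, 236 and 153 CPM in the pulldown. Every pulldown library was higher, and Hoxc10 rose 2.27-fold (log2 ratio 1.18 ± 0.27 SE, edgeR adjusted p = 0.00545).

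All 4 genes of paralog group 9 were higher in every Snap25 pulldown library than in any input library, and 2 of them passed the test. Hoxd9 was at 56.9, 37.2 and 43.1 CPM in the input and 74.6, 62.6 and 93.4 CPM in the pulldown, 1.68-fold higher (edgeR adjusted p = 0.0410). Hoxa9 was at 27.5, 27.4 and 22.2 CPM in the input and 48.3, 44.4 and 36.9 CPM in the pulldown, also 1.68-fold higher (edgeR adjusted p = 0.0446). Hoxb9 (54.4, 55.4 and 45.03 CPM against 109, 94.1 and 69.2 CPM in the pulldown) and Hoxc9 (means 9.33 and 16.7 CPM) missed the threshold with edgeR adjusted p of 0.0517 and 0.0987, and Hoxb9 passed with the replicate block (0.0273).

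The calls of this paralog group were near the threshold, while log2 values stayed between 0.65 and 0.84 for Hoxa9 and between 0.57 and 0.93 for Hoxd9 with any 1 library left out. The edgeR adjusted p of Hoxa9 became 0.0962, 0.0984 and 0.134 without PreIP_Snap25 library 1, 2 and 3 and 0.119 and 0.101 without TRAP_Snap25 library 1 and 2. That of Hoxd9 became 0.172 and 0.106 without PreIP_Snap25 library 2 and 3 and 0.0722 and 0.109 without TRAP_Snap25 library 1 and 3.

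Hoxb8 was at 185, 161 and 107 CPM in the Snap25 input and 251, 213 and 281 CPM in the pulldown, higher in every library with an edgeR adjusted p of 0.0600, or 0.0361 with the replicate block. Hoxd1 was the single gene that fell, from 6.38, 4.66 and 6.65 CPM to 0.661, 0.670 and 1.63 CPM, 6.07-fold (log2 ratio -2.60 ± 0.62 SE, edgeR adjusted p = 0.00715). Of the 7 anterior genes, 6 had negative values, with a median of -0.88. In this pulldown cholinergic markers summed to 418 to 736 CPM against 171 to 278 CPM in the input (3 of 8 higher), and excitatory markers to 145 to 199 against 102 to 125 CPM (1 of 5 higher). Inhibitory markers summed to 937 to 1284 against 825 to 1031 CPM, with 1 of 6 lower. Over all genes, 9.69% rose and 12.7% fell in this pulldown. The oligodendrocyte, astrocyte, oligodendrocyte precursor and microglia markers all fell, and their part in the Hox values was not tested.

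**Figure D4:**
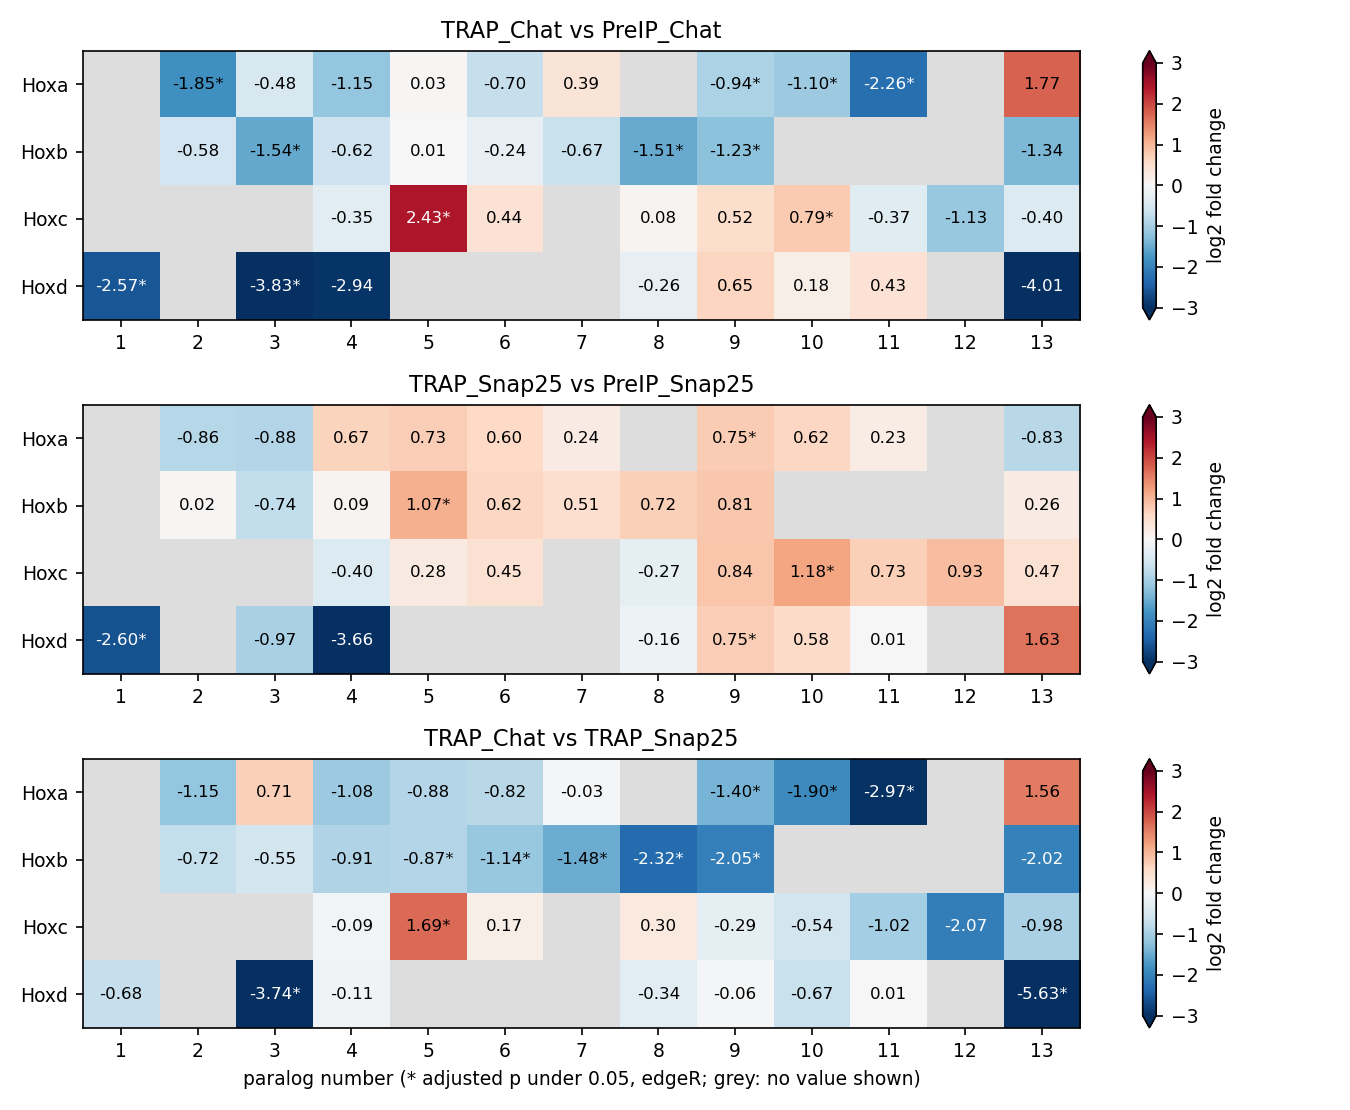
Log2 fold change of tested Hox genes (cells, colour scale cut at 3 in either direction, value printed) by cluster (vertical) and paralog number (horizontal) in 3 comparisons; a star marks an edgeR adjusted p under 0.05 and grey a position with no value shown. In the Chat pulldown against the Snap25 pulldown, all 9 Hoxb values are negative and Hoxc5, at 1.69, is the starred positive value.

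The third comparison set the pulldowns of the lines side by side, which addresses the series' own question of motor neurons against all neurons. It shares the Chat pulldown libraries with the first comparison and the Snap25 pulldown libraries with the second, so their values are not independent. Of the 37 Hox genes, 10 were lower in the Chat pulldown (Hoxa9, Hoxa10, Hoxa11, Hoxb5, Hoxb6, Hoxb7, Hoxb8, Hoxb9, Hoxd3 and Hoxd13) and 1 was higher (Hoxc5). Among all genes, 2.77% were lower and 3.97% higher, 6.75% in all. The median log2 fold change was -0.82 over the Hox genes and 0.01 over all genes, with 31 of 37 Hox values negative. Without TRAP_Chat library 1, 8 were lower and 1 higher. Libraries did not overlap for 13 Hox genes that were lower and 1 that was higher, against 9.47% and 10.3% of all genes.

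The Hoxb cluster was lower throughout in the Chat pulldown: all 9 tested values were negative, 5 fell, and the median was -1.14 on the log2 scale. Hoxb8, with the CPM given above, fell 4.99-fold without overlap (log2 ratio -2.32 ± 0.28 SE, edgeR adjusted p = 0.000113). Hoxb9 fell 4.15-fold (log2 ratio -2.05 ± 0.30 SE, edgeR adjusted p = 0.000468). Hoxb7, which is known with its neighbours for thoracic patterning, was at 16.0, 7.33 and 10.4 CPM in the Chat pulldown and 28.2, 37.3 and 28.7 CPM in the Snap25 pulldown. The groups did not overlap and it fell 2.79-fold (edgeR adjusted p = 0.00806).

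Hoxb5 fell 1.83-fold (84.4, 65.3 and 85.8 CPM against 143, 121 and 167 CPM, edgeR adjusted p = 0.0222, and 0.106 without TRAP_Chat library 2). Hoxb6, a brachial and thoracic gene, was at 36.0, 16.5 and 22.9 CPM in the Chat pulldown and 35.2, 72.3 and 58.3 CPM in the Snap25 pulldown, with overlapping groups. Its edgeR adjusted p of 0.0360 became 0.140 without TRAP_Chat library 2 or without TRAP_Snap25 library 2, and 0.0991 without TRAP_Chat library 3. Exact seed matches of miR-196 lie in 8 tested Hox genes, of which 3 (Hoxa9, Hoxb6 and Hoxb7) were lower in the Chat than in the Snap25 pulldown. Of all 37 Hox genes 10 were lower, and of all genes 2.77%. Against the Chat input 1 of the 8 fell (Hoxa9), where 14.3% of all genes did. Hoxb8 carries the 22-base site printed above. None of the 4 genes with a miR-10 match passed the test between the pulldowns. A part of microRNAs in these values was not tested.

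In the Hoxa cluster, 3 neighbouring posterior genes were lower and Hoxa7, the gene with the highest level per kb, did not pass. Hoxa10 fell 3.74-fold without overlap (8.28, 12.6 and 10.4 CPM against 43.2, 27.6 and 46.3 CPM, edgeR adjusted p = 0.000804). Hoxa9 fell 2.64-fold without overlap (edgeR adjusted p = 0.00377). Hoxa11 was at 6.17, 3.85 and 2.24 CPM in the Snap25 pulldown against 0.185, 0.227 and 1.09 CPM, with no overlap (log2 ratio -2.97 ± 0.69 SE, edgeR adjusted p = 0.0157). That p became 0.0515 without TRAP_Snap25 library 1 and 0.0520 without TRAP_Chat library 2, and without TRAP_Chat library 3 the log2 value was -4.27. Hoxa7 was at 72.1, 85.1 and 106 CPM against 89.8, 80.4 and 98.3 CPM, with a log2 fold change of -0.03 and an edgeR adjusted p of 0.959.

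In the Hoxc cluster the Chat pulldown held more Hoxc5 (7.48, 17.1 and 20.04 CPM) than the Snap25 pulldown (3.53, 4.35 and 6.001 CPM), 3.22-fold without overlap. Its edgeR adjusted p of 0.0276 became 0.0831 and 0.0747 without TRAP_Snap25 library 1 and 2, and 0.0667 and 0.101 without TRAP_Chat library 2 and 3. Hoxc10 did not pass the test (log2 fold change -0.54, edgeR adjusted p = 0.243), and its libraries overlapped. Hoxc12, among the most posterior genes of the cluster, was lower in every Chat pulldown library (5.43 ± 5.44 against 22.7 ± 6.03 CPM) with an edgeR adjusted p of 0.0705.

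In the Hoxd cluster, the 2 genes that passed had few counts. Hoxd3 was at 0, 0 and 0.156 CPM in the Chat pulldown and 1.18, 0.558 and 0.915 CPM in the Snap25 pulldown. It had 3 counts in the former and 35 in the latter, a depth-scaled ratio of 13.7-fold lower (95% counting interval 4.32 to 69.7, edgeR adjusted p = 0.0418). Its call was lost without TRAP_Snap25 library 1, 2 or 3 (0.0902, 0.0534 and 0.0519) and without TRAP_Chat library 1 or 2 (0.109 and 0.112), and without TRAP_Chat library 3 the log2 value was -6.80. Hoxd13, the gene of distal limb and genital patterning, had 0, 1 and 0 counts in the Chat pulldown libraries and 0, 46 and 17 counts in the Snap25 pulldown libraries. The ratio was 74.1-fold lower with a 95% counting interval from 12.8 to 2972, and the groups overlapped at 0. Such an interval leaves out the spread between libraries, which was wide here. Its edgeR adjusted p of 0.0345 became 0.110 without TRAP_Snap25 library 2 and 0.0974, 0.0582 and 0.106 without TRAP_Chat library 1, 2 and 3. Hoxd9 did not pass, its libraries overlapped, and its log2 fold change was -0.06 (edgeR adjusted p = 0.929).

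Among the other cell markers, 8 of 8 cholinergic markers were higher in the Chat pulldown than in the Snap25 pulldown (2401 to 3855 against 418 to 736 CPM summed). Inhibitory markers were lower for 5 of 6 (144 to 301 against 937 to 1284 CPM) and excitatory markers for 2 of 5 (37.6 to 48.7 against 145 to 199 CPM). Over all genes, 3.97% were higher and 2.77% lower. Of 4 tested Schwann and dorsal root ganglion markers 1 was higher, and the 6 listed summed to 961 to 1098 against 208 to 337 CPM. Of 4 endothelium markers 1 was higher, and no oligodendrocyte, astrocyte or microglia marker was called. The part of these markers in the Hox differences was not tested.

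The change from input to pulldown was then compared between the lines in 1 model, which tests whether the lines differ. Hoxb8, Hoxb9 and Hoxa9 passed, all with the Chat line lower, or 3 of 37, where 0.44% of all genes were lower and 0.604% higher, 1.04% in all. Each of these 3 genes fell on Chat-line ribosomes, and each was higher in every Snap25 pulldown library than in any Snap25 input library. For Hoxb8, the log2 fold change was -1.51 in the Chat line and 0.72 in the Snap25 line, a difference of -2.22 ± 0.38 SE (edgeR adjusted p = 0.00855), and the call held without any 1 library. For Hoxb9 the values were -1.23 and 0.81, a difference of -2.05 ± 0.41 SE (edgeR adjusted p = 0.0201). For Hoxa9 they were -0.94 and 0.75, a difference of -1.69 ± 0.36 SE (edgeR adjusted p = 0.0334).

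The Hoxb9 difference missed the threshold without PreIP_Snap25 library 1 or 3 (edgeR adjusted p = 0.0559 and 0.0706), PreIP_Chat library 1 or 2 (0.0722 and 0.0650) or TRAP_Snap25 library 1 (0.0527). The Hoxa9 difference missed it without PreIP_Snap25 library 1, 2 or 3 (0.0770, 0.0671 and 0.0918), PreIP_Chat library 1 or 2 (0.119 and 0.0815), TRAP_Snap25 library 1 or 2 (0.0707 and 0.0561) or TRAP_Chat library 2 or 3 (0.0651 and 0.0769). Hoxa10 had a difference of -1.72 ± 0.40 SE with an edgeR adjusted p of 0.0506, and it passed in 5 of 19 alternatives: with DESeq2 (0.00464), no filter on low counts (0.0182), a 1 CPM filter (0.0471), no mitochondrial ribosomal RNA (0.0493) and without TRAP_Snap25 library 2 (0.0282). In the other 14 its adjusted p was up to 0.160. Hoxc5 differed the other way, by 2.16, with an edgeR adjusted p of 0.113, or 0.0453 without TRAP_Chat library 1. All 9 Hoxb differences were negative, and the median was -0.71 over the Hox genes and 0.03 over all genes.

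**Figure D5:**
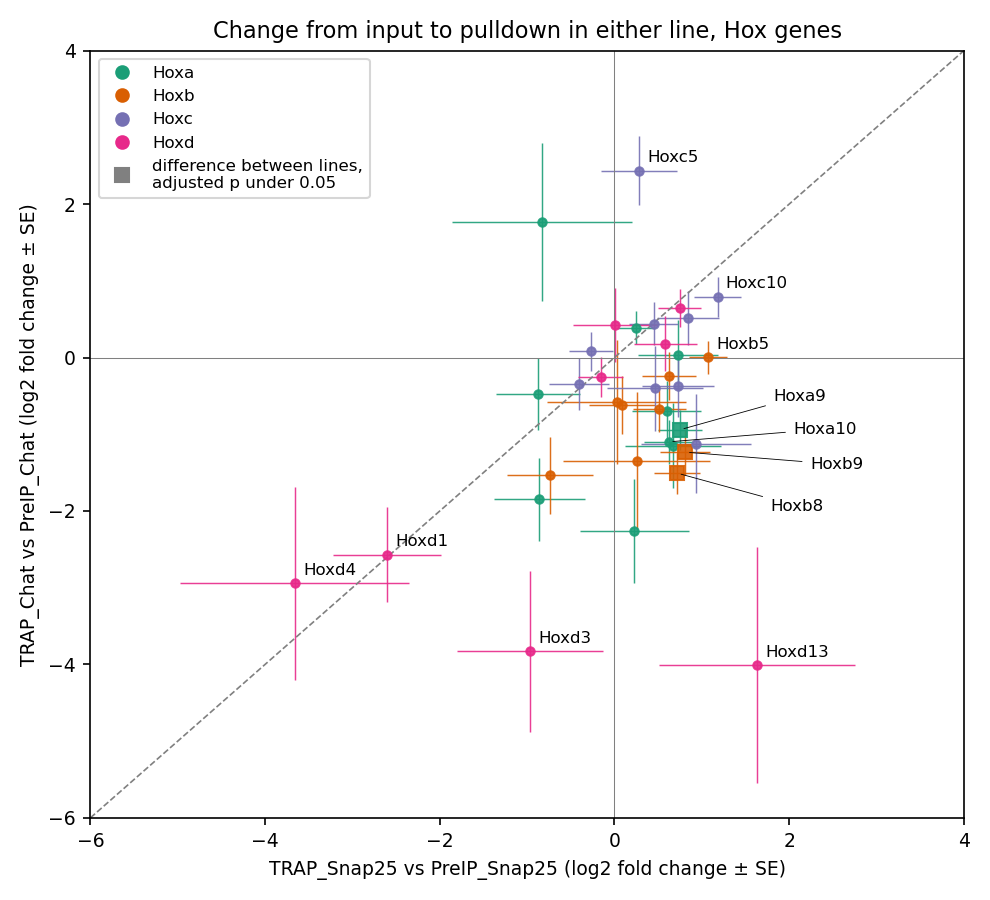
Log2 fold change from input to pulldown in the Snap25 line (horizontal axis) and in the Chat line (vertical axis) for tested Hox genes; bars are standard errors, colours clusters, and the dashed line marks equal change. Squares mark Hoxb8, Hoxb9 and Hoxa9, whose values are positive on the horizontal axis and negative on the vertical axis, while Hoxd1 lies close to the dashed line at -2.60 and -2.57.

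No Hox gene passed the test between the inputs of the lines: 0 of 37 were called with edgeR, where 0% of all genes were. No Hox gene had an unadjusted edgeR p under 0.05, against 133 of all genes, and 0 passed with DESeq2 or with limma voom. The median log2 difference between the inputs, Chat line minus Snap25 line, was -0.14 over the Hox genes. Hoxa4, a cervical gene, had the lowest p, at 5.50, 3.76 and 4.71 CPM in the Chat input and 3.68, 1.42 and 3.26 CPM in the Snap25 input. Its libraries did not overlap, as for Hoxd8 in the opposite direction, against 4.19% of all genes higher and 3.85% lower without overlap. The Hoxa4 difference of 0.74 ± 0.55 SE on the log2 scale had an unadjusted p of 0.197 and an edgeR adjusted p of 0.9998.

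The remaining members passed no test. Hoxd8, a trunk gene, was at 44.7, 37.4, 52.9 and 47.4 CPM in PreIP_Chat, TRAP_Chat, PreIP_Snap25 and TRAP_Snap25. Hoxc4, a cervical gene, was at 20.1, 15.8, 22.2 and 16.8 CPM, and Hoxd10, a lumbar motor neuron gene, at 10.7, 12.1, 12.9 and 19.3 CPM. Hoxa13 was at 0.0618, 3.70 and 0.573 CPM in the 3 Chat pulldown libraries, so that 1 library set its mean. Hoxd4 was lower in both pulldowns without overlap (0.644 to 0.0694 CPM in the Chat line and 1.14 to 0.102 CPM in the Snap25 line), with edgeR adjusted p of 0.0929 and 0.0545. Hoxa3, Hoxa6, Hoxb2, Hoxb4, Hoxb13, Hoxc11, Hoxc13 and Hoxd11 passed no test in any of the 5 comparisons.

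Of 9 cofactor genes of the Pbx, Meis and Pknox families, 1 rose and 0 fell in the Chat pulldown, where 12.6% of all genes rose. The gene, Pbx3, was at 50.8 ± 3.41 CPM in the Chat input and 81.6 ± 11.5 CPM in the Chat pulldown (log2 ratio 0.69 ± 0.24 SE, edgeR adjusted p = 0.0429).

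Of 27 Polycomb and trithorax genes, 4 fell and 0 rose in the Chat pulldown, and 5 fell and 1 rose in the Snap25 pulldown, against their inputs. Over all genes 14.3% fell and 12.6% rose in the former and 12.7% fell and 9.69% rose in the latter. Phc1, a Polycomb repressive complex subunit, fell in both, with edgeR log2 fold changes of -2.16 ± 0.31 SE (adjusted p = 0.000182) and -1.75 ± 0.31 SE (adjusted p = 0.00116). Kdm6b, a demethylase of the Polycomb mark, fell as well, by 1.55 and 1.78 on the log2 scale. In the Chat line Pcgf2 and Jarid2 also fell, and in the Snap25 line Kmt2a also fell and Phf1 rose. Ezh2, the Polycomb methyltransferase, fell by 3.23 on the log2 scale in the Snap25 pulldown (edgeR adjusted p = 0.00114), and it was higher in the Chat than in the Snap25 pulldown (3.75 ± 2.17 against 0.899 ± 0.286 CPM, edgeR adjusted p = 0.0316). Phc2 was also higher there and Cbx7 lower, at 14.2 ± 3.99 against 29.2 ± 1.35 CPM. Between the pulldowns 2 of the 27 were thus higher in the Chat line and 1 lower, where 3.97% and 2.77% of all genes were.

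Upstream regulators include retinoic acid receptors and hindbrain factors, of which 14 of 18 were tested. In the Chat pulldown 2 rose and 1 fell, where 12.6% and 14.3% of all genes did. In the Snap25 pulldown 0 rose and 1 fell, where 9.69% and 12.7% of all genes did. Between the pulldowns 2 were higher in the Chat line and 0 lower, against 3.97% and 2.77% of all genes. Rara, a retinoic acid receptor, was at 21.6 ± 2.66 CPM in the Chat input, 74.1 ± 23.7 CPM in the Chat pulldown and 23.8 ± 15.4 CPM in the Snap25 pulldown. It rose by 1.78 ± 0.38 SE on the log2 scale against the input (edgeR adjusted p = 0.00300) and was higher than in the Snap25 pulldown by 1.65 ± 0.38 SE (edgeR adjusted p = 0.0149). Its partner Rxra was higher in the same comparisons (edgeR adjusted p = 0.0241 and 0.0148). Egr2, a hindbrain factor that Schwann cells also express, fell in both lines (edgeR adjusted p = 0.00132 and 0.0183).

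Of 17 genes that act with or downstream of Hox proteins in motor neurons, 6 rose in the Chat pulldown (lowest p for Ret, Mnx1, Isl2 and Isl1) and 7 fell (lowest p for Etv4, Epha4, Nkx6-1 and Lhx1). Over all genes 12.6% rose and 14.3% fell, and the median log2 fold change of the 17 was -0.56. Mnx1, a motor neuron identity factor, went from 1.83 ± 0.631 to 25.0 ± 2.97 CPM (edgeR adjusted p = 5.64e-05). Isl1, Mnx1 and Ret are also among the cholinergic markers above. Foxp1, the Hox accessory factor of limb-level motor neurons, stood at 27.0, 21.5, 23.7 and 23.9 CPM in PreIP_Chat, TRAP_Chat, PreIP_Snap25 and TRAP_Snap25 and passed in neither pulldown. In the Snap25 pulldown 3 of the 17 rose (Isl2, Lhx3 and Ret) and 4 fell (Etv4, Nkx6-1, Nkx6-2 and Pou3f1), with a median of -0.00, where 9.69% and 12.7% of all genes did. Between the pulldowns 6 were higher in the Chat line (lowest p for Mnx1, Ret, Isl1 and Gfra1) and 3 lower (Cpne4, Epha4 and Lhx1), against 3.97% and 2.77% of all genes.

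The clusters also hold 44 noncoding and antisense genes in the table, of which 18 were tested and 14 had no count at all. Of the 18, 4 fell in the Chat pulldown and 5 in the Snap25 pulldown, and 1 was lower in the Chat than in the Snap25 pulldown, where 14.3%, 12.7% and 2.77% of all genes were. That last gene, Gm53, is a noncoding RNA gene between Hoxb13 and Hoxb9. It was at 13.3, 9.19 and 8.78 CPM in the Chat input, 1.48, 3.32 and 2.97 CPM in the Chat pulldown and 10.1, 6.14 and 23.2 CPM in the Snap25 pulldown. Every Chat pulldown library lay below all the others, by -2.33 ± 0.48 SE on the log2 scale against the Snap25 pulldown (edgeR adjusted p = 0.00747) and -2.005 ± 0.47 SE against the input (edgeR adjusted p = 0.00557). Of its flanking genes, Hoxb9 was lower in the same 2 comparisons and Hoxb13 passed in neither (edgeR adjusted p = 0.281 and 0.199). Haglr, a long noncoding gene of the Hoxd cluster, was at 3.07, 0.655, 3.98 and 0.996 CPM and Hotair of the Hoxc cluster at 1.22, 0.763, 2.95 and 0.773 CPM in the order used above, and neither passed in either line. The other called genes of this list are not named here.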

How the data were processed

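RNA was measured as read counts per gene in 12 spinal cord libraries. The authors deposited whole-number counts, which per the submitters' processing notes came from STAR alignment and HTSeq counting of reads from amplified cDNA. Tool versions, genome build, annotation and strandedness were not given in the sources used here. Of 41736 lines, 824 repeated an earlier gene and were dropped, leaving 40912 genes. Groups came from the sample titles. Tests used edgeR 4.0.16 under R 4.3.3 (filterByExpr, TMM scaling, quasi-likelihood test, 1 mean for each of 4 groups over all 12 libraries). P-values were adjusted by the Benjamini-Hochberg method over 15905 genes, with a threshold of 0.05. CPM are TMM-scaled unless stated. Limma 3.58.1 (voom), DESeq2 1.42.0, other filters, a replicate block, the compared groups alone, libraries without mitochondrial rRNA and each library left out in turn were alternatives. The code was tested on simulated data. Counting intervals and the floor of 3 counts cover counting error only.

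The results of a few genes are not reported here. Values in each library are given for every Hox gene past the threshold in any comparison, for the highest per kb in each cluster and, where none passed, for the lowest p. From the lists of regulators and targets, up to 4 genes a comparison and direction with the lowest p could be named. Noncoding genes could be named from a mean of 1 CPM, and not all that were called are named. A few others (Foxp1, Hoxa5, Hoxc6, Hoxc8 and genes near the threshold) were added once their values had been seen. The members and all lists were chosen with earlier results of these data known. Exon lengths and overlaps are from GENCODE M21, and microRNA and upstream sequences from RefSeq (GRCm38.p6). Upstream windows were found for 22 Hox genes, and protein sequences were not used here.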

Additional observations from a re-analysis of the deposited data

Results flagged for a closer look

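Of the Hox genes, 3 had a change from input to pulldown that differed between the Chat and Snap25 lines by the test of that difference in edgeR. Hoxb8 differed by -2.22 ± 0.38 SE on the log2 scale (adjusted p = 0.00855), Hoxb9 by -2.05 ± 0.41 SE (adjusted p = 0.0201) and Hoxa9 by -1.69 ± 0.36 SE (adjusted p = 0.0334), each lower in the Chat line. In all 3, every Chat pulldown library was lower than every Chat input library, and every Snap25 pulldown library was higher than every Snap25 input library. No other Hox gene passed this test. The groups hold 3 libraries each, so no library was tested as standing apart within its group.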

How the results depend on the processing

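Of the 30 Hox calls over all comparisons, 13 passed in every alternative run and 17 missed the threshold in at least 1. No called Hox gene changed direction in any alternative run. Total-count scaling was applied as 1 constant shift for each comparison, of at most 0.38 on the log2 scale. This is less than the size of any call, so the shift could not turn one. TMM factors also differed within groups, such as 0.846 to 1.06 in the Chat input. A fit by total counts would thus not move all genes alike, and none was run. The number that rose in the Chat pulldown was 2, and 1 to 2 with any 1 library left out; the number that fell was 9, and 5 to 8. With DESeq2, voom, the compared groups alone or no mitochondrial rRNA, 3 rose. In the Snap25 pulldown 4 rose, but 2 in a fit of the compared groups alone and 2 to 4 with 1 library left out, where Hoxa9 and Hoxd9 were lost (edgeR adjusted p = 0.0753 and 0.0876 with the groups alone, 0.105 and 0.0666 with no filter). The 1 that fell became 2 with DESeq2, voom or no filter, and 1 to 2 with a library left out. Between the pulldowns the 1 higher gene became 0 in the groups alone, and 0 to 1 with a library left out; the 10 lower became 5, and 6 to 9. There, with the groups alone, Hoxb6, Hoxc5, Hoxa11 and Hoxb5 had adjusted p of 0.129, 0.0977, 0.109 and 0.0976, and Hoxd13 had 0.181 with voom. In the difference between lines, the 0 higher became 1 with DESeq2 (Hoxc5, 0.0204) and 0 to 1 with a library left out, and the 3 lower became 5 with DESeq2 or no filter and 1 to 3. The inputs gave 0 throughout. Over all genes, the 1073 calls between the pulldowns became 1772 with DESeq2, 1761 with no filter and 382 with the groups alone, the 166 in the difference became 501 and 453 with DESeq2 and no filter, the 3558 in the Snap25 line became 2362 with the groups alone, and the 0 between inputs became 1 with DESeq2 and 7 with no filter. The cause of these shifts was not tested; the groups alone hold fewer samples, and no filter more genes.

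Same-numbered input and pulldown libraries of the Chat line had deviations correlated at 0.060, 0.102 and 0.127, and those of the Snap25 line at -0.037, 0.167 and 0.147, so the correlations did not show every pair to deviate together. Same-numbered input and pulldown also share a tag in the descriptions, of unstated meaning, so the numbers may mark shared material. Each Chat library, but not each Snap25 library, correlated best with its own number. With the replicate block, 3 Hox genes rose and 9 fell in the Chat line, 6 rose and 1 fell in the Snap25 line, and 0 were higher and 3 lower in the difference. The block added Hoxd9 in the Chat line and Hoxb8 and Hoxb9 in the Snap25 line and ended no call. All genes called were then 4431, 3663 and 206, against 4273, 3558 and 166. At these depths, genes under about 1 CPM rest on few counts.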
